A study of Mus musculus with 24 samples.

Results

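Lungs of 2 inbred mouse strains, C57BL/6J and BALB/c, were compared 24 h after intratracheal bleomycin at 1.5 U per kg, with 2 arrays for each strain and no saline array in the contrast. These 4 arrays were taken by strain, agent and time from the titles of 24 arrays, which also cover 72 h and 14 d and intratracheal saline. To separate differences that the strains already showed without the drug, the same strain contrast was made on the 4 saline arrays of 14 d, 2 for each strain. The 4 saline arrays of 24 h served as another reference. All animals were otherwise described only as strain, agent and time, with no sex, age or genetic alteration given in the labels. The series title places the work in the genetics of how prone mice are to lung fibrosis, and the comparison asks how the strains differ early after the drug. The titles mark the arrays of a group a and b. Nothing states that these came from different animals, and every p-value measures only the spread between such arrays, which may be technical. The number before the letter differs between the 2 C57BL/6J bleomycin 24 h titles and is the same in the 2 BALB/c ones. The titles do not explain this number. The descriptions of the BALB/c bleomycin 24 h arrays list several harvest times. The 24 h of their titles was used.

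Bleomycin is a drug that breaks DNA, and in mouse lung it first causes injury and inflammation and later scarring. C57BL/6J is known as a strain that scars readily after bleomycin and BALB/c as one that scars less. Type I interferons are secreted proteins that act through a receptor on the cell surface to switch on a set of antiviral genes, among them Isg15, the Ifit family and Usp18. DNA damage is also known to raise p53 target genes, such as the cell cycle inhibitor Cdkn1a, in most tissues.

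Each array carries 12488 probe sets, short sets of oligonucleotides that are each designed for a transcript, and gives 1 linear intensity per probe set. The median intensity ranged from 313 to 408 over the 24 arrays. Across probe sets, which are not independent replicates, the log2 values of arrays a and b correlated with r = 0.969 in the C57BL/6J bleomycin 24 h group and 0.968 in the BALB/c one, and with r = 0.954 and 0.978 in the saline 14 d groups. The number of arrays limits the precision. The lung marker Sftpc, surfactant protein C of alveolar type 2 cells, was present at 648 and 5099 in the 2 C57BL/6J bleomycin arrays and at 436 and 1189 in the BALB/c ones, so it varied within both strains. The summed intensity of 11 type 2 cell genes was 39460 and 58020 in C57BL/6J and 43950 and 46540 in BALB/c. The C57BL/6J saline 24 h arrays stood apart from the rest, with maximal intensities of 78641 and 43230 against at most 21462 elsewhere and type 2 cell sums of 204200 and 151700. Their titles end in s1 and those of all other arrays in s2 or s2a, a mark that the titles do not explain. Both b arrays of saline 24 h also differed from their a partners: the summed intensity of 11 neutrophil genes was 9193 and 32300 in C57BL/6J and 8457 and 37490 in BALB/c, and that of 26 cytokine and chemokine genes was 12930 and 31590, and 12850 and 24200. Changes in the strain difference from saline 24 h, and the counts with that reference, are therefore also given without these b arrays. This choice was made after seeing the data. Other calls, signs and medians on the saline 24 h arrays are given with the b arrays only. The saline 72 h arrays go against their strain labels. H2-Ea, low in C57BL/6J and high in BALB/c in the groups compared here, read 4821 and 3622 at 72 h where the label says C57BL/6J and 89.5 and 48.3 where it says BALB/c. The saline 72 h arrays entered no contrast except with all saline times as the reference, where they were exchanged between strains. Elsewhere they entered only the estimate of the spread, the intensity filter and the choice of the brightest probe set.

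Between the strains 24 h after bleomycin, 163 of the 8710 probe sets tested (1.87%) differed at an adjusted p under 0.05 (limma, Benjamini-Hochberg over all probe sets tested), which is the meaning of "called" throughout. Of these, 107 were higher in C57BL/6J and 56 were lower. After saline at 14 d, 1291 probe sets (14.8%) were called, 761 of them higher in C57BL/6J. Of these 1291, 65.8% had the same sign on the saline 24 h arrays, where 2.5% of all probe sets were called. Counted by gene, with 1 probe set for each, 118 of 6464 genes (1.83%) were called after bleomycin, 80 higher (1.24%) and 38 lower (0.588%) in C57BL/6J. After saline, 609 genes (9.42%) were called higher and 350 (5.41%) lower. The median log2 difference over all genes was -0.03 after bleomycin and -0.01 after saline. Because intensities are from whole lung, fewer cells of a type and less RNA per cell cannot be told apart.

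The 163 probe sets fell into 4 classes. The strain difference was already present for 91 of them (55.8%), which were also called after saline 14 d with the same sign, 61 higher and 30 lower in C57BL/6J. For 1 probe set, Aldh3a1, both contrasts were called with opposite signs. Another 7 were seen only after bleomycin: they were not called after saline, and the change in the strain difference from saline 14 d to bleomycin 24 h was itself called (67 probe sets of 8710, 0.769%, had such a call). The remaining 64 (39.3%) were called after bleomycin and not after saline, with no call of the change, and so were not resolved. By gene, the classes held 63, 1, 6 and 48 members.

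**Figure D1:**
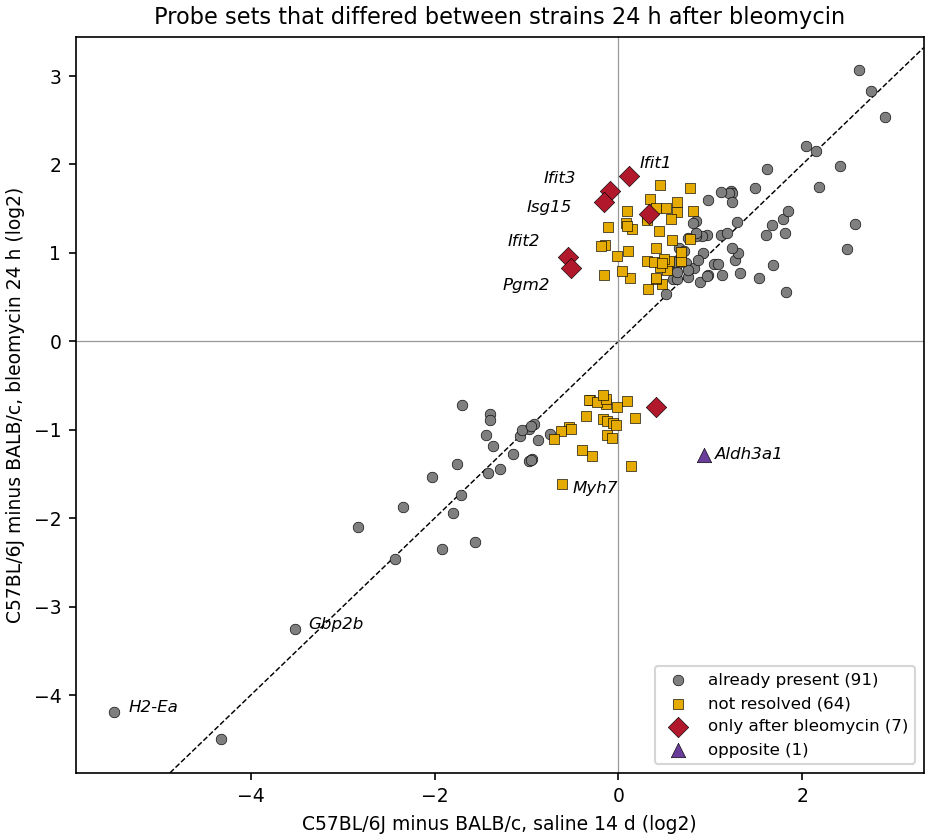
The strain difference after bleomycin 24 h (vertical axis, log2, C57BL/6J minus BALB/c) against the same difference after saline 14 d (horizontal axis, log2) for the 163 probe sets called after bleomycin, coloured by class; the dashed line marks equal differences. The 91 probe sets already different after saline, chosen for calls of the same sign in both contrasts, lie along the line. They run from H2-Ea and Gbp2b at the lower left to the upper right. Ifit1, Ifit3 and Isg15 lie near 0 on the saline axis and above 1.5 on the bleomycin axis.

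Isg15, a small ubiquitin-like protein that is joined to other proteins during antiviral responses, had the smallest adjusted p for the change in strain difference among the 6 genes seen only after bleomycin. Its intensity was 3938 and 3407 in the 2 C57BL/6J bleomycin arrays and 1173 and 1156 in the 2 BALB/c ones. After saline 14 d it was 1090 and 1034 in C57BL/6J and 1169 and 1213 in BALB/c. The C57BL/6J bleomycin arrays were therefore the only high ones of these 8. The ratio of mean intensities after bleomycin was 3.15, and the log2 difference was 1.58 ± 0.16 (SE, limma adjusted p = 1.37e-05) against -0.15 ± 0.16 after saline. The change in the strain difference was 1.73 ± 0.23 (limma adjusted p = 0.00514). Within C57BL/6J the bleomycin arrays exceeded the saline 14 d arrays by 1.70 ± 0.16, and within BALB/c the same difference was -0.03 ± 0.16.

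Ifit1, which binds viral RNA that lacks a host cap, was likewise highest, among these 8 arrays, on the 2 C57BL/6J bleomycin ones. It read 2378 and 1855 in C57BL/6J after bleomycin and 533 and 488 in BALB/c, and after saline 14 d it read 482 and 493 in C57BL/6J and 527 and 373 in BALB/c. The groups did not overlap after bleomycin and did after saline. The log2 difference was 1.87 ± 0.21 after bleomycin (limma adjusted p = 4.6e-05) and 0.11 ± 0.21 after saline, and its change was 1.75 ± 0.30 (limma adjusted p = 0.0132).

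Ifit3, a partner protein of Ifit1, read 2452 and 2201 in C57BL/6J after bleomycin and 609 and 701 in BALB/c. Its saline 14 d values were 664 and 774 in C57BL/6J and 951 and 619 in BALB/c, again overlapping. The strain difference after bleomycin was 1.70 ± 0.25 (limma adjusted p = 0.000759), and its change was 1.79 ± 0.35 (limma adjusted p = 0.0257). Usp18, the protease that removes Isg15 from proteins and dampens interferon receptor signalling, read 2081 and 1844 against 652 and 681 after bleomycin. After saline 14 d it was 625 and 702 in C57BL/6J and 538 and 474 in BALB/c, a small gap in the same direction that was not called (0.34 ± 0.17). Its difference after bleomycin was 1.44 ± 0.17 (limma adjusted p = 9.49e-05), with a change of 1.10 ± 0.24 (limma adjusted p = 0.0466).

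Ifit2, another member of the Ifit family, and Pgm2, a phosphoglucomutase, entered the class in a different way. Ifit2 read 532 and 407 in C57BL/6J and 210 and 181 in BALB/c after bleomycin, whereas after saline 14 d it read 253 and 310 in C57BL/6J and 409 and 503 in BALB/c. The strains thus stood in opposite order on the 2 sets of arrays. The BALB/c bleomycin arrays lay below the BALB/c saline ones by a log2 difference of -0.93 ± 0.21 (limma adjusted p = 0.0254), a call lost without any 1 of those 4 arrays (0.0944 to 0.221). Within C57BL/6J the same difference was 0.58 ± 0.21 and not called. For Pgm2 the values were 876 and 683 in C57BL/6J and 470 and 330 in BALB/c after bleomycin, and 497 and 552 in C57BL/6J and 819 and 759 in BALB/c after saline 14 d. Here too the BALB/c difference between bleomycin and saline was called, at -0.85 ± 0.20 (limma adjusted p = 0.0312), and lost without any 1 of the 4 BALB/c arrays (0.0551 to 0.279). The remaining probe set of the class has no gene name in the annotation and was lower in C57BL/6J after bleomycin, at -0.74.

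**Figure D2:**
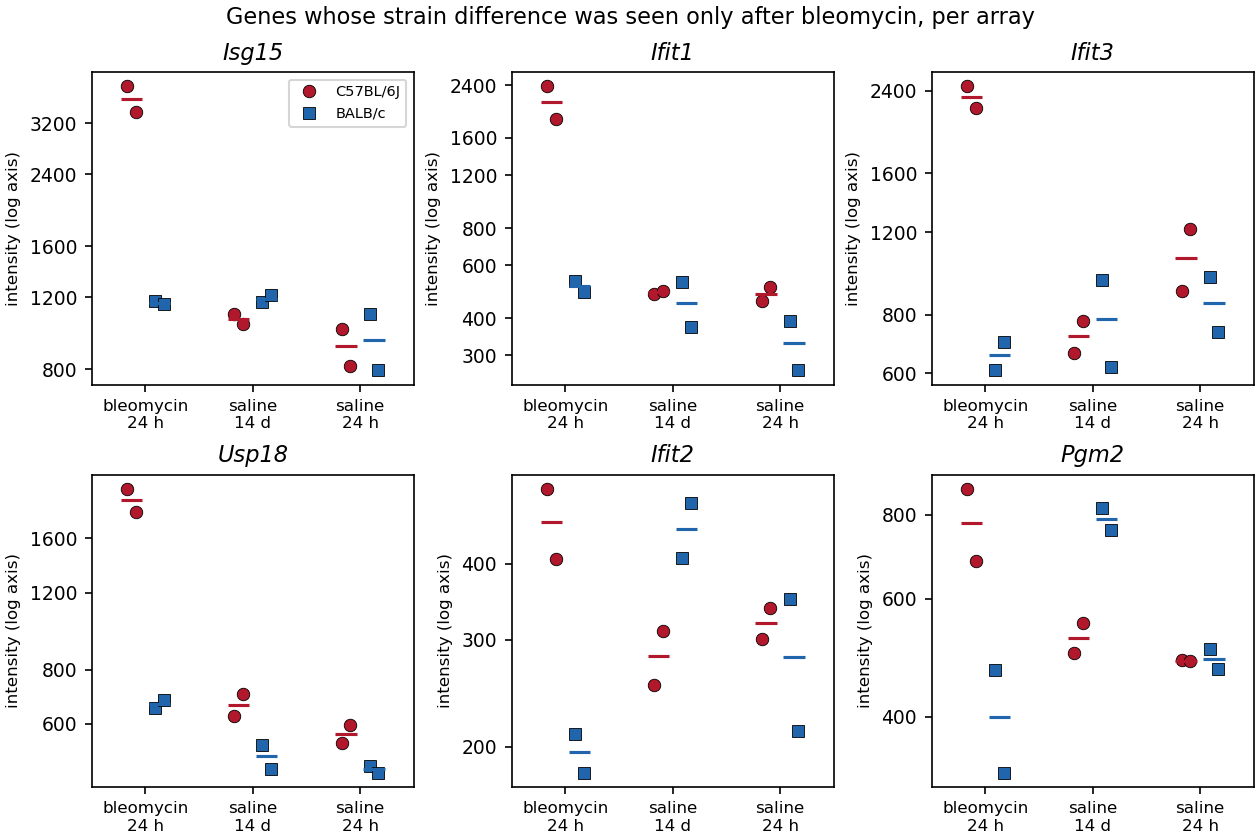
Intensity per array (log axis) of the 6 genes seen only after bleomycin, in C57BL/6J (circles) and BALB/c (squares), after bleomycin 24 h, saline 14 d and saline 24 h; horizontal bars are the means of 2 arrays. For Isg15, Ifit1, Ifit3 and Usp18 the 2 C57BL/6J bleomycin arrays lie above all other arrays shown, and for Ifit2 and Pgm2 the BALB/c saline 14 d arrays are high and the BALB/c bleomycin arrays low.

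The bleomycin differences of Isg15, Ifit1, Ifit3 and Usp18 were called whichever of the 8 arrays was left out, and the test of the change was less firm. Without BALB/c bleomycin array b the change had a limma adjusted p of 0.0504 for Isg15, 0.0623 for Ifit1, 0.0723 for Ifit3 and 0.151 for Usp18, and 0 probe sets had a called change by limma, beside 908 at an unadjusted p under 0.05. The Isg15 change was called without each of the other 7 arrays. That of Ifit1 was also lost without BALB/c saline array a (0.0656), C57BL/6J bleomycin array a (0.0617) and C57BL/6J saline array a (0.0657). The changes of Ifit3 and Usp18 were lost in 7 and 8 of the 8 omissions, with adjusted p up to 0.143 and 0.17. Ifit2's difference after bleomycin was lost without any 1 of the 4 bleomycin arrays (adjusted p 0.0561 to 0.279) and Pgm2's in 7 of the 8 omissions (up to 0.534). The change of each was lost in 7 of the 8 omissions, up to 0.13 for Ifit2 without BALB/c saline array b and 0.169 for Pgm2 without BALB/c bleomycin array b. With the b arrays of saline 24 h left out of the fit, the changes of Usp18 (0.0546) and Pgm2 (0.0544) and the bleomycin difference of Pgm2 (0.0578) were lost.

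Time and treatment differ together between the bleomycin 24 h and saline 14 d arrays. On the saline 24 h arrays the log2 strain difference was -0.04 for Isg15, 0.46 for Ifit1, 0.29 for Ifit3 and 0.23 for Usp18, none of them called. Measured against these arrays, the change was called for Isg15 (1.62, limma adjusted p = 0.0127) and was 1.41 for Ifit1, 1.41 for Ifit3 and 1.21 for Usp18, with adjusted p of 0.0983, 0.173 and 0.0983. Without the b arrays of saline 24 h the changes were 1.69 for Isg15, 1.69 for Ifit1, 1.79 for Ifit3 and 1.29 for Usp18 (limma adjusted p of 0.0212, 0.0882, 0.106 and 0.112). The change from saline 24 h was 0.79 for Ifit2 and 0.84 for Pgm2, neither of them called. Without the b arrays of saline 24 h these changes were 1.13 and 0.88. The later bleomycin arrays, which share no array with these contrasts, gave strain differences at 72 h of 0.95 for Isg15, 0.97 for Ifit1, 1.19 for Ifit3 and 0.92 for Usp18, and all 4 were called (limma adjusted p 0.00309 to 0.0219; 1.64% of probe sets were called at that time). At 14 d after bleomycin they were -0.20, -0.56, -0.05 and -0.61, of which Usp18 was called, lower in C57BL/6J (limma adjusted p = 0.0244; 15.7% of probe sets were called then).

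The promoters of Isg15, Ifit1 and Ifit3, in which the search found a match, are shown because interferon-activated factors are known to bind a motif of GAAA, any 2 bases and GAAA, which on the other strand reads TTTC, any 2 bases and TTTC. The 200 bases before the start of each gene are printed 5′ to 3′ on the gene's strand, from RefSeq on GRCm38.p6, an assembly of C57BL/6J, with matches in capitals. They lie at chr4:156200819-156201018 on the minus strand for Isg15, chr19:34640689-34640888 on the plus strand for Ifit1 and chr19:34583329-34583528 on the plus strand for Ifit3.
Isg15: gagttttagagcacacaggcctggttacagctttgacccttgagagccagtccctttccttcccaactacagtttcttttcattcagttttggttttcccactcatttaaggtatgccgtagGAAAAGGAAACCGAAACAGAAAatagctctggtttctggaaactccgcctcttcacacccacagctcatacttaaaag
Ifit1: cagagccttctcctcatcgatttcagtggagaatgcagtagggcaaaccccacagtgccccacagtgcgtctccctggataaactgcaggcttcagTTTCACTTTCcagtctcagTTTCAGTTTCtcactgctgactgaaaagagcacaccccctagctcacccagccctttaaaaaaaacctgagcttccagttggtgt
Ifit3: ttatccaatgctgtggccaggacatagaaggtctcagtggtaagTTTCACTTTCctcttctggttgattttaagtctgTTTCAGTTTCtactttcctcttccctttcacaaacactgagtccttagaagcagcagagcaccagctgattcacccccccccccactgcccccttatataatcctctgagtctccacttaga

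Isg15 held 3 matches, which overlap each other, and Ifit1 and Ifit3 held 2 each. In windows of 300 bases, 250 before and 50 after the start, 3.44% of 32851 windows held at least 1 match on either strand. Of the interferon-stimulated genes with a window, 6 of the 12 called after bleomycin and 5 of the 11 not called held a match, beside 3.8% of all tested genes with a window. The windows of Ifit2 held no match, and those of Usp18 and Pgm2 were not analysed here. A match is a description of the reference sequence, and the BALB/c sequence was not used here.

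Interferon-stimulated genes as a list were shifted towards C57BL/6J after bleomycin. Of 29 tested genes, 13 were called higher and 0 lower by limma (19 and 1 at an unadjusted p under 0.05), beside 1.24% of all 6464 genes called higher. The 13 became 5 without C57BL/6J bleomycin array a, 6 without either BALB/c bleomycin array and 10 without C57BL/6J bleomycin array b. The sign was positive for 26 of the 29 after bleomycin and for 14 after saline 14 d. After saline 14 d, 5 of the 29 were called higher and 1 lower (9.42% and 5.41% of all genes). The median log2 difference was 0.75 after bleomycin and -0.01 after saline, beside -0.03 and -0.01 for all genes. The summed intensity of the list was 51190 and 49330 on the C57BL/6J bleomycin arrays, 28290 and 28850 on the BALB/c ones, and 28070 to 32550 on the 4 saline 14 d arrays. On the saline 24 h arrays it was 38660 and 37290 in C57BL/6J and 29610 and 28420 in BALB/c. The 2 C57BL/6J bleomycin arrays were thus the highest of these 12, and the C57BL/6J sums also lay above the BALB/c ones after saline 24 h, where 0 genes of the list were called higher and 1 lower (limma; 6 and 1 at an unadjusted p under 0.05, and 1.36% and 1.08% of all genes called) with a median of 0.17. At 72 h after bleomycin 5 of the 29 were called higher and 0 lower by limma (15 and 1 at an unadjusted p under 0.05, and 1.02% and 0.603% of all genes called), with a median of 0.43. At 14 d after bleomycin 0 were called higher and 7 lower by limma (2 and 10 at an unadjusted p under 0.05, and 5.46% and 10.4% of all genes called), with a median of -0.22 beside -0.12 for all genes.

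Besides the 5 genes of the list described above, 8 members were called, and these are named after their values were seen. Irf7, Irf9, Cmpk2, Trim25 and Lgals3bp were already higher in C57BL/6J after saline 14 d. Irf7, the interferon regulatory factor that amplifies type I interferon production, read 1227 and 990 against 401 and 461 after bleomycin, and its strain difference was 1.19 after bleomycin and 0.84 after saline. Irf9, a DNA-binding factor of the interferon response, differed by 0.72 and 0.75. Its values of 4090 and 3243 in C57BL/6J against 2160 and 2184 in BALB/c did not overlap. The change in the strain difference was not called for these 2 regulators, and without BALB/c or C57BL/6J saline array a their saline calls were lost (limma adjusted p of 0.162 and 0.112 for Irf7, 0.0679 and 0.0943 for Irf9). The saline call of Cmpk2 was lost without any 1 of the 4 saline arrays (up to 0.271), that of Trim25 in all 8 omissions (up to 0.205), both at most without BALB/c saline array b, and that of Lgals3bp in none.

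Trim21, Gbp2 and Ifih1 were not resolved. Trim21, a cytosolic antibody receptor, differed by 1.15 after bleomycin and 0.58 after saline, and Gbp2, a guanylate-binding protein, by 1.06 and 0.41. Ifih1, the RNA sensor MDA5, differed by 0.75 after bleomycin and -0.16 after saline. Each of the 8 was lost when 1 or more of the 4 bleomycin arrays was left out. The highest limma adjusted p was 0.119 for Irf7 and 0.365 for Irf9, both without C57BL/6J bleomycin array a, 0.089 for Trim21 without BALB/c bleomycin array b, 0.0839 for Gbp2 and 0.342 for Ifih1, both without C57BL/6J bleomycin array a. For Cmpk2 and Trim25 it was 0.516 and 0.384 without BALB/c bleomycin array b, and for Lgals3bp 0.286 without C57BL/6J bleomycin array a. Among members that were not called, the chemokine Cxcl10 read 540 and 207 against 82.0 and 60.5 (1.41, limma adjusted p = 0.0764), and the antiviral Rsad2 read 1527 and 1257 against 619 and 723 (0.96, limma adjusted p = 0.0697).

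**Figure D3:**
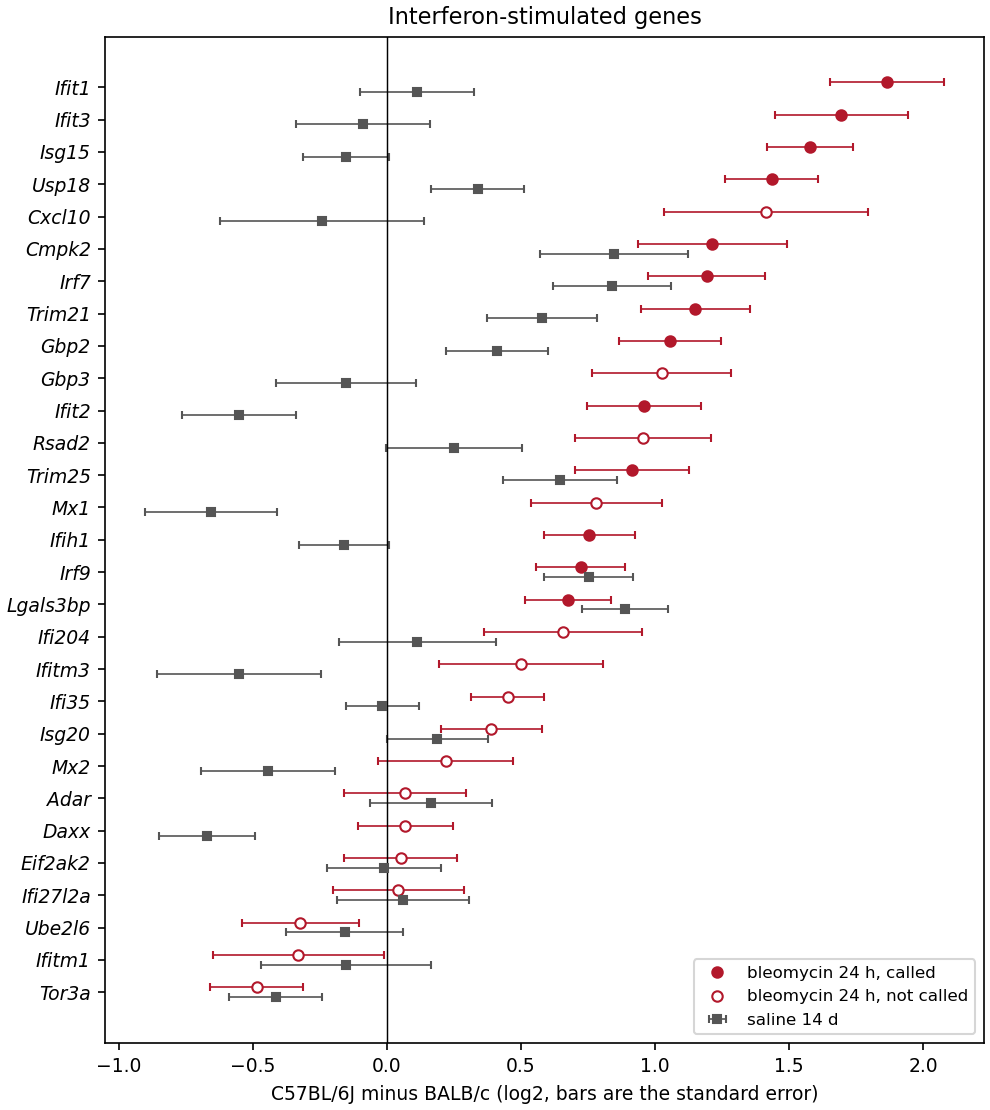
Log2 strain difference, C57BL/6J minus BALB/c, with its standard error for the 29 tested interferon-stimulated genes, after bleomycin 24 h (circles, filled where called) and after saline 14 d (squares). The bleomycin values are positive for 26 genes with a median of 0.75, and the saline values scatter on both sides of 0 with a median of -0.01.

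Of 9 interferon-induced GTPases, proteins that attack the vacuoles of intracellular microbes, 2 were called higher (Gbp2, also in the list above, and Irgm2) and 1 lower (Gbp2b), beside 1.24% and 0.588% of all genes. At an unadjusted p under 0.05, 6 were higher and 1 lower. Irgm2 read 2112 and 2135 against 1083 and 932, a difference of 1.01 (limma adjusted p = 0.0469) that was lost in 6 of the 8 omissions, up to 0.401 without BALB/c bleomycin array b. Without BALB/c or C57BL/6J bleomycin array a, 1 of the 9 was called in place of 3. The median of the 9 was 0.65 after bleomycin and -0.07 after saline.

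Cytokine and chemokine genes gave fewer calls. Of 26 tested, 3 were called higher in C57BL/6J and 0 lower by limma (8 and 0 at an unadjusted p under 0.05), beside 1.24% and 0.588% of all genes, with 19 positive and a median log2 difference of 0.52 after bleomycin against -0.01 after saline. Cxcl14, a chemokine made by epithelia, was already present: it read 1902 and 1666 against 566 and 596 after bleomycin and 1955 and 2122 against 495 and 506 after saline 14 d, differences of 1.48 and 1.85. Ccl7, which draws monocytes, read 1247 and 502 in C57BL/6J and 133 and 214 in BALB/c after bleomycin, where it was called at the edge of the threshold (1.77 ± 0.44, limma adjusted p = 0.0493). After saline 14 d it was between 5.80 and 99.6 on all 4 arrays. Its call was lost in 7 of the 8 omissions, up to 0.488 without C57BL/6J bleomycin array a. Il12b, the shared p40 subunit of IL-12 and IL-23, read 365 and 279 against 38.5 and 123 (1.30, limma adjusted p = 0.0308) and lay between 44.1 and 80.0 on the saline 14 d arrays. Its call was lost without BALB/c bleomycin array a (0.277), C57BL/6J bleomycin array a (0.279) or b (0.11). Ccl17, a T cell attractant, read 1700 and 1378 against 496 and 336 and was not called (1.69, limma adjusted p = 0.0581). Of the 26, 1 was called without BALB/c or C57BL/6J bleomycin array a, 5 without the C57BL/6J saline 24 h arrays and 7 without the b arrays of saline 24 h, where Ccl17 was called (0.0297). The summed intensity of the list was 29990 and 20170 in C57BL/6J and 14260 and 14540 in BALB/c after bleomycin, between 10720 and 13610 after saline 14 d, and up to 31590 on the saline 24 h b arrays.

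In the p53 and DNA damage list, 17 of 21 tested genes had a positive sign after bleomycin. The median was 0.45, against 0.04 after saline. At an unadjusted p under 0.05, 10 were higher and 1 lower after bleomycin, beside 416 and 390 of all 6464 genes. By limma adjusted p, 1 gene was called, beside 1.24% of all genes called higher. That gene, Phlda3, a p53 target that restrains AKT, read 4833 and 4669 in C57BL/6J and 2491 and 2939 in BALB/c after bleomycin, and between 1084 and 1703 on the 4 saline 14 d arrays. It was therefore above the saline level in both strains, by 1.74 ± 0.20 in C57BL/6J and 0.98 ± 0.20 in BALB/c, the latter lost without BALB/c bleomycin array b (limma adjusted p = 0.14) or saline array a (0.0734) or b (0.134). The strain difference of 0.79 ± 0.20 had a limma adjusted p of 0.0475 and was lost in 6 of the 8 omissions, up to 0.275 without C57BL/6J bleomycin array a, and also without the b arrays of saline 24 h (0.0631). Cdkn1a read 3086 and 4035 against 2307 and 2424 after bleomycin and 1426 and 1476 against 542 and 566 after saline. Its strain difference was called after saline (1.26, limma adjusted p = 0.00621, but 0.0511 without BALB/c saline array a) and not after bleomycin (0.56, limma adjusted p = 0.42), and the change was not called (-0.70, limma adjusted p = 0.447). Ccng1, cyclin G1, another p53 target, read 3838 and 3285 against 2789 and 2936 (0.30, limma adjusted p = 0.597). Blmh, the hydrolase that inactivates bleomycin, overlapped between the strains at 2138 and 2216 in C57BL/6J and 2146 and 2112 in BALB/c.

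The largest class of called differences held those that the saline arrays also showed. The 91 probe sets already present after saline were chosen for a call of the same sign in both contrasts. Among them, the difference after bleomycin was larger in size for 54 and smaller for 37, with a median ratio of 1.04. Because of that choice, the ratio does not measure how far saline differences were kept after bleomycin. Of all 1291 saline calls, 7.13% were also called after bleomycin and 74.5% had the same sign there. On arrays that neither contrast used, 89 of the 91 had the same sign after saline 24 h, with 54 called there, and 88 had it 72 h after bleomycin, with 51 called. At 14 d after bleomycin 82 kept the sign and 57 were called. For comparison, 2.5%, 1.64% and 15.7% of all probe sets were called in those 3 contrasts.

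The 3 largest log2 differences were of genes dim in C57BL/6J and bright in BALB/c. Their C57BL/6J values lie near or below the offset of 92 that was added before log2, which sets their size and order: as ratios of mean intensities, BALB/c over C57BL/6J, they were 40.5 for Pdxdc1, 36.6 for H2-Ea and 58.3 for Gbp2b. Pdxdc1, a decarboxylase-like gene, read 151 and 61.4 in C57BL/6J and 4791 and 3829 in BALB/c on its brightest probe set (-4.50 ± 0.30, limma adjusted p = 9.52e-08). Another pair of Pdxdc1 probe sets went the other way, at 1.33 and 1.58, so the probe sets of this gene disagree. H2-Ea, the alpha chain of the class II molecule I-E, read 109 and 61.6 against 3315 and 2917 after bleomycin and 25.6 and 57.6 against 5854 and 5840 after saline 14 d. Its log2 difference was -4.19 ± 0.28 after bleomycin (limma adjusted p = 9.52e-08) and -5.48 ± 0.28 after saline. C57BL/6 mice are known to lack I-E. Gbp2b read 16.4 and 15.9 against 1056 and 827, with -3.25 ± 0.23 after bleomycin and -3.52 ± 0.23 after saline.

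Fbp2, the muscle form of fructose bisphosphatase, read 29.2 and 42.5 in C57BL/6J and 531 and 699 in BALB/c (-2.46), and -2.44 was its difference after saline. Baiap2l1, which bends membranes with actin, differed by -2.27 and -1.56, and Cap1, which recycles actin monomers, by -1.88 and -2.35. Erdr1 (-2.34 and -1.91) was lost without BALB/c bleomycin array b (limma adjusted p = 0.0501) or C57BL/6J bleomycin array a (0.0758). Serpina1b, an alpha-1-antitrypsin gene that belongs to a family of near-identical copies, differed by -1.74 and -1.71, and its call was lost without BALB/c bleomycin array a (0.0557) or b (0.188) or C57BL/6J bleomycin array a (0.27). Plau, the plasminogen activator urokinase, was lower in C57BL/6J as well, at 253 and 232 against 947 and 756 after bleomycin (-1.49) and with -1.42 after saline. Ocel1 completed the 10 largest at -1.44 and -1.29. The saline call was lost without C57BL/6J saline array a for Erdr1 (0.0649) and without array b for Serpina1b (0.0594).

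In the other direction, the largest difference was on a probe set that the array annotation assigns to the microRNA gene Mir686, with 7166 and 7104 in C57BL/6J and 735 and 808 in BALB/c (3.07, and 2.61 after saline); which transcript it reports was not tested. Arl2bp, a partner of the small GTPase ARL2, read 7261 and 8312 against 1762 and 1585, with 2.16 after bleomycin and 2.15 after saline. Chil3, the chitinase-like Ym1 of alternatively activated macrophages, read 4747 and 4442 against 1152 and 1034 after bleomycin and 9606 and 7459 against 1687 and 1375 after saline, a difference of 1.98 and 2.41. Its strain gap was the single call among 25 macrophage genes after bleomycin, beside 1.24% of all genes called higher. At an unadjusted p under 0.05, 6 of the 25 were higher and 1 lower. After saline 14 d, 3 of the 25 were called higher (9.42% of all genes). The summed intensity of the 25 was 43520 and 44750 in C57BL/6J and 37250 and 38340 in BALB/c after bleomycin.

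Snhg6, a host gene of small nucleolar RNAs, differed by 1.95 and 1.61, Qsox1, which forms disulfide bonds in secreted proteins, by 1.74 and 2.18, and Thumpd1 by 1.69 and 1.12. Xdh, xanthine dehydrogenase, an enzyme of purine breakdown, read 2294 and 2586 against 775 and 711 (1.60, and 0.98 after saline). Nnmt, which methylates nicotinamide, differed by 1.70 and 1.22 and was lost without BALB/c bleomycin array b (limma adjusted p = 0.0749). Ly6d (1.68 and 1.20) was lost without BALB/c bleomycin array b (0.195) or C57BL/6J bleomycin array a (0.0649) or b (0.109). Reg3g, an antibacterial lectin of epithelia, read 4004 and 2194 against 835 and 825 and was called at the edge (1.73, limma adjusted p = 0.0475), with the call lost in all 8 omissions, up to 0.447 without C57BL/6J bleomycin array a. The saline calls of Ly6d and Reg3g were lost without any 1 of the 4 saline 14 d arrays (0.0686 to 0.137 and 0.0831 to 0.168). That of Xdh was lost without BALB/c saline array b (0.27) or C57BL/6J saline array a (0.0614) or b (0.0931), and that of Nnmt without BALB/c saline array a (0.12) or C57BL/6J saline array b (0.0515).

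**Figure D4:**
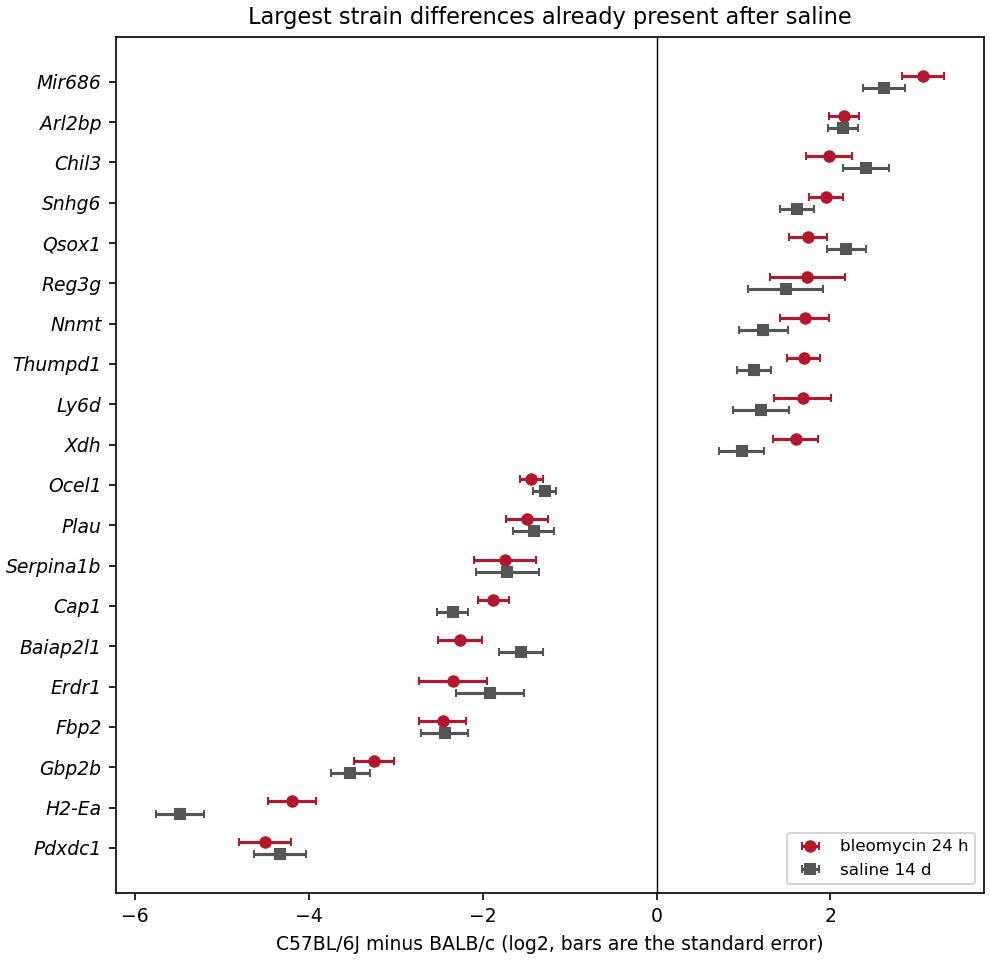
Log2 strain difference, C57BL/6J minus BALB/c, with its standard error after bleomycin 24 h (circles) and saline 14 d (squares) for the 10 genes with the largest difference in each direction among those already present after saline. The 2 symbols of a gene lie on the same side of 0 in all 20, as the class requires, from Pdxdc1 at -4.50 to Mir686 at 3.07 after bleomycin.

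Probe sets of the class I genes H2-K1 and H2-D1, which present peptides to CD8 T cells, disagreed among themselves. For H2-K1, 1 probe set read 348 and 312 in C57BL/6J and 1492 and 1986 in BALB/c (-2.10), and the brightest one was not called (-0.13, limma adjusted p = 0.922). For H2-D1 the corresponding values were -1.53 and 0.12. H2-K1 and H2-D1 are polymorphic members of a family with similar sequences and were looked up after their values were seen. Of 20 class I and processing genes, 0 were called at the gene level by limma. At an unadjusted p under 0.05, 5 were higher in C57BL/6J and 0 lower, beside 416 and 390 of all 6464 genes. Of 14 class II genes 1 was called, H2-Ea, lower in C57BL/6J, beside 0.588% of all genes called lower. H2-Ab1 and Cd74 each differed by -0.05 after bleomycin.

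Among enzymes of detoxification, Aldh3a1 had a strain difference of opposite sign after bleomycin and Gsto1 a smaller one. Those of Gsta2 and Gclc were called after bleomycin with no call of their change. Of 35 antioxidant and glutathione genes, 3 were higher and 7 lower in C57BL/6J after bleomycin at an unadjusted p under 0.05. Aldh3a1, an aldehyde dehydrogenase of airway epithelium, read 571 and 479 in C57BL/6J and 1714 and 1145 in BALB/c after bleomycin, but 1261 and 1339 in C57BL/6J and 628 and 649 in BALB/c after saline 14 d. The strain difference was -1.28 ± 0.29 after bleomycin (limma adjusted p = 0.0264) and 0.93 ± 0.29 after saline, a change of -2.21 ± 0.41 (limma adjusted p = 0.0211). The strains stood in opposite order on these 2 sets of arrays, with neither pair overlapping. Measured against the saline 24 h arrays, the change was -1.53 and was not called (limma adjusted p = 0.227). Without the b arrays of saline 24 h it was -2.04. The bleomycin call was lost without BALB/c bleomycin array a (0.231), C57BL/6J bleomycin array a (0.121) or b (0.222), and the change was lost in 7 of the 8 omissions, up to 0.0855 without C57BL/6J bleomycin array b. The saline call was lost without any 1 of the 4 saline arrays (0.119 to 0.159).

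Gsto1, a glutathione transferase of the omega class, was higher in C57BL/6J on both sets of arrays and by less after bleomycin. It read 4837 and 4266 against 3132 and 2960 after bleomycin and 4054 and 3667 against 1044 and 1000 after saline 14 d. The difference went from 1.83 to 0.56, a change of -1.26 ± 0.19 (limma adjusted p = 0.0083), and the BALB/c arrays differed between bleomycin and saline by 1.49 ± 0.13 where the C57BL/6J ones differed by 0.23 ± 0.13. Its bleomycin call was lost in 6 of the 8 omissions, up to 0.322 without C57BL/6J bleomycin array a, and its change was lost without BALB/c bleomycin array b (0.0542). Gsta2, an alpha class glutathione transferase, was higher in BALB/c after bleomycin alone, at 2383 and 1965 against 701 and 815, and all 4 saline 14 d values lay between 725 and 896. Its difference was -1.41 ± 0.28 (limma adjusted p = 0.0104), but the change was not called (-1.55, limma adjusted p = 0.0753), and the bleomycin call was lost without any 1 of the 4 bleomycin arrays (0.0528 to 0.131). Gclc, which makes the rate-limiting subunit for glutathione synthesis, was higher in C57BL/6J, at 3948 and 3758 against 2209 and 1872 (0.89), and by 0.62 after saline. It was lost without BALB/c bleomycin array b (0.242), C57BL/6J bleomycin array a (0.14) or b (0.0899), and its saline call was lost in 3 omissions, up to 0.271 without BALB/c saline array b. Of 35 antioxidant and glutathione genes, 2 were called higher and 1 lower (1.24% and 0.588% of all genes), which became 0 without BALB/c or C57BL/6J bleomycin array b and 1 without either array a.

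Among the 64 unresolved probe sets, 56 had the same sign after saline 14 d. The class asks for a call after bleomycin and none after saline, so a larger size after bleomycin was fixed in advance. The median size of the 64 was 1.0 after bleomycin, and the median saline difference in the same direction was 0.32. The same choice favours a small p of the change, which was under 0.05 unadjusted for 35 of the 64. At 72 h after bleomycin 56 kept their sign and 15 were called.

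Of the unresolved genes higher in C57BL/6J, Clip4, a microtubule-associated protein, read 859 and 627 against 171 and 141 (1.74) and was lost without BALB/c bleomycin array b (limma adjusted p = 0.0533) or C57BL/6J bleomycin array a (0.077). Tec, a tyrosine kinase of blood cells (1.58), was lost without any 1 of the bleomycin arrays (0.1 to 0.142). Ch25h, which makes the interferon-inducible antiviral sterol 25-hydroxycholesterol, read 965 and 606 against 225 and 197 (1.51) and was lost without BALB/c bleomycin array a (0.07) or b (0.188) or C57BL/6J bleomycin array a (0.256). Ngdn and Gm9706 were called in every omission. Gm9706 read 1017 and 767 against 239 and 283 after bleomycin and between 133 and 239 on the saline 14 d arrays, a difference of 1.47 ± 0.23 with a change of 1.37 ± 0.33 that missed the threshold (limma adjusted p = 0.0604). Ngdn differed by 1.51 ± 0.22, where the BALB/c bleomycin arrays, at 61.4 and 51.2, were the low ones against 190 to 348 on the saline 14 d arrays.

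Of 27 endothelial genes and of 18 T and NK cell genes, 1 each was called after bleomycin, higher in C57BL/6J, beside 1.24% of all genes. At an unadjusted p under 0.05, 3 endothelial genes were higher and 2 lower. For T and NK cell genes these counts were 2 and 0. After saline 14 d, 4 of the endothelial genes were called higher and 3 lower (9.42% and 5.41% of all genes). Vcam1, the endothelial adhesion molecule that captures leukocytes, read 2640 and 2278 against 1353 and 1077 after bleomycin (0.97) and between 1462 and 1627 on all 4 saline 14 d arrays. It was the 1 call among 27 endothelial genes and was lost without BALB/c bleomycin array b (limma adjusted p = 0.17) or C57BL/6J bleomycin array a (0.122). Cd52, a surface protein of lymphocytes and monocytes, read 3799 and 3774 against 2091 and 1848 (0.91) and was the 1 call of 18 T and NK cell genes. It was lost without BALB/c bleomycin array b (0.118) or C57BL/6J bleomycin array a (0.0713) or b (0.0547). The summed T and NK cell list was 9813 and 9152 in C57BL/6J and 8113 and 7376 in BALB/c after bleomycin, and 8608 to 10200 after saline 14 d. The neutrophil list, with 0 of 11 genes called by limma (0 at an unadjusted p under 0.05), summed to 20920 and 17590 in C57BL/6J and 15730 and 17830 in BALB/c after bleomycin, above the 8401 to 9088 of the saline 14 d arrays in both strains, but below the 32300 and 37490 of the b arrays of saline 24 h, whose a arrays were at 9193 and 8457.

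Of the unresolved genes lower in C57BL/6J, Myh7, the slow cardiac myosin heavy chain, had the largest difference. It read 727 and 777 in C57BL/6J and 2624 and 2374 in BALB/c after bleomycin (-1.62 ± 0.24, limma adjusted p = 0.000759) and 2109 and 1527 against 2705 and 2902 after saline 14 d. It was called in every omission, and on the saline 24 h arrays the difference was -1.12 and called. Tnnc1, the cardiac and slow muscle troponin C, and Myh6, the other cardiac myosin heavy chain, were lower by -0.97 and -0.88. The Tnnc1 call was lost without any 1 of the 4 bleomycin arrays (up to 0.229 without BALB/c array b) and the Myh6 call without 3 of them (up to 0.293 without BALB/c array a). Together with Myh7 these were the only calls among 25 tested genes of heart and skeletal muscle, beside 0.588% of all genes called lower. At an unadjusted p under 0.05, 9 of the 25 were lower and 0 higher. The 3 calls became 1 without BALB/c bleomycin array a or either C57BL/6J bleomycin array and 2 without BALB/c bleomycin array b. Of the 25 genes, 23 had a lower value in C57BL/6J after bleomycin and 16 after saline 14 d. Their summed intensity was 15100 and 15730 in C57BL/6J and 23360 and 21940 in BALB/c after bleomycin, 23780 to 26190 on the saline 14 d arrays, and 18580 and 16800 in C57BL/6J and 29780 and 20590 in BALB/c on the saline 24 h arrays. Members called lower in C57BL/6J numbered 4 after saline 24 h, 7 at 72 h after bleomycin and 8 at 14 d after bleomycin (1.08%, 0.603% and 10.4% of all genes), and 0 were called higher there by limma (0, 0 and 1 at an unadjusted p under 0.05). After saline 14 d, 2 members were called lower and 1 higher (5.41% and 9.42% of all genes). The part that heart or other muscle carried with the lung plays in these differences was not tested.

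Fgfbp1, which releases fibroblast growth factors from matrix, differed by -1.30 and Gnb3, a G protein subunit, by -1.23, with intensities under 332 on all 4 bleomycin arrays. Each was lost in 3 omissions, up to 0.328 without C57BL/6J bleomycin array b for Fgfbp1 and 0.54 without BALB/c bleomycin array b for Gnb3. Mybl2, a transcription factor of dividing cells (-1.09), was likewise lost in 3, up to 0.318 without BALB/c bleomycin array b. Of 35 cell cycle and replication genes, which do not include Mybl2, 0 were called by limma (2 at an unadjusted p under 0.05), with a median of -0.14 after bleomycin and -0.12 after saline. Cftr, the chloride channel of epithelia, was chosen after its values were seen because it was called in every omission: it read 367 and 354 against 777 and 753 (-0.92 ± 0.15, limma adjusted p = 0.00198), with -0.06 after saline and a change that was not called (limma adjusted p = 0.071).

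No gene of the matrix or growth factor lists was called between the strains at this time in the fit over all arrays. Of 44 collagen and matrix genes, 0 were called after bleomycin 24 h (limma; 7 at an unadjusted p under 0.05), while 9 were called higher in C57BL/6J after saline 14 d (9.42% of all genes), 2 after saline 24 h (1.36%) and 13 at 14 d after bleomycin (5.46%). Without the b arrays of saline 24 h, 1 was called after bleomycin, Vcan, the proteoglycan versican (1.31, limma adjusted p = 0.0431). Col1a1, the main fibrillar collagen chain, read 5045 and 4895 against 3590 and 4204 after bleomycin (0.35, limma adjusted p = 0.669) and 6821 and 7107 against 2668 and 3090 after saline (1.25, limma adjusted p = 0.00818, but 0.0775 without BALB/c saline array a). Col3a1 differed by 0.43 (limma adjusted p = 0.508), and Fn1, fibronectin, by -0.04 with overlapping values. Tgfb1, the cytokine that drives scarring, read 869 and 761 against 828 and 859 after bleomycin, and 2090 and 1485 against 445 and 579 after saline, where it was called (1.63, limma adjusted p = 0.00337, but 0.05 without C57BL/6J saline array a). Its change of -1.68 was not called (limma adjusted p = 0.0887). Timp1, an inhibitor of matrix proteases, overlapped at 3891 and 5438 against 4654 and 5063, and so did Acta2, smooth muscle actin, at 4141 and 3765 against 4674 and 2879. Of 36 genes for TGF-beta signalling and growth factors, 0 were called after bleomycin by limma (5 at an unadjusted p under 0.05). After saline 14 d, 7 were called higher and 2 lower (9.42% and 5.41% of all genes). After saline 24 h, 0 were called higher and 2 lower by limma, beside 1.36% and 1.08% of all genes. At an unadjusted p under 0.05 the saline 24 h counts were 1 and 4. Nnt, a mitochondrial transhydrogenase that C57BL/6J is known to carry in a deleted form, differed by -0.56 (limma adjusted p = 0.17) after bleomycin and 0.09 after saline.

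Heat shock genes, which encode protein-folding chaperones, had calls after saline 14 d and none after saline 24 h or bleomycin 24 h. After saline 14 d, 7 of 14 were called higher in C57BL/6J (9.42% of all genes), with a median of 0.57, after saline 24 h 0 were called by limma (2 at an unadjusted p under 0.05), with a median of -0.04, and after bleomycin 0 were called by limma (3 at an unadjusted p under 0.05), with a median of 0.27. The change in the strain difference was called for 0 of the 14. Over all probe sets, 56 had a called change in the strain difference without a call after bleomycin, and all 56 were called after saline 14 d, 40 of them higher in C57BL/6J. Because they were chosen in this way, a larger size after saline 14 d than after bleomycin was fixed in advance. The median size of the 56 was 1.02 after saline 14 d and 0.30 after bleomycin 24 h. On the saline 24 h arrays it was 0.24, and 6 of the 56 were called there with the same sign. Lpcat1, which makes the surfactant lipid dipalmitoylphosphatidylcholine, was one, although its saline call was lost without saline array a of BALB/c (limma adjusted p = 0.0518) or of C57BL/6J (0.0957). It read 1487 and 1763 against 1998 and 2221 after bleomycin (-0.36), and 4901 and 3649 against 2389 and 2423 after saline 14 d (0.79). Its change of -1.15 was called (limma adjusted p = 0.0385), and that call was lost in 7 of the 8 omissions, up to 0.154 without BALB/c bleomycin array b.

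**Figure D5:**
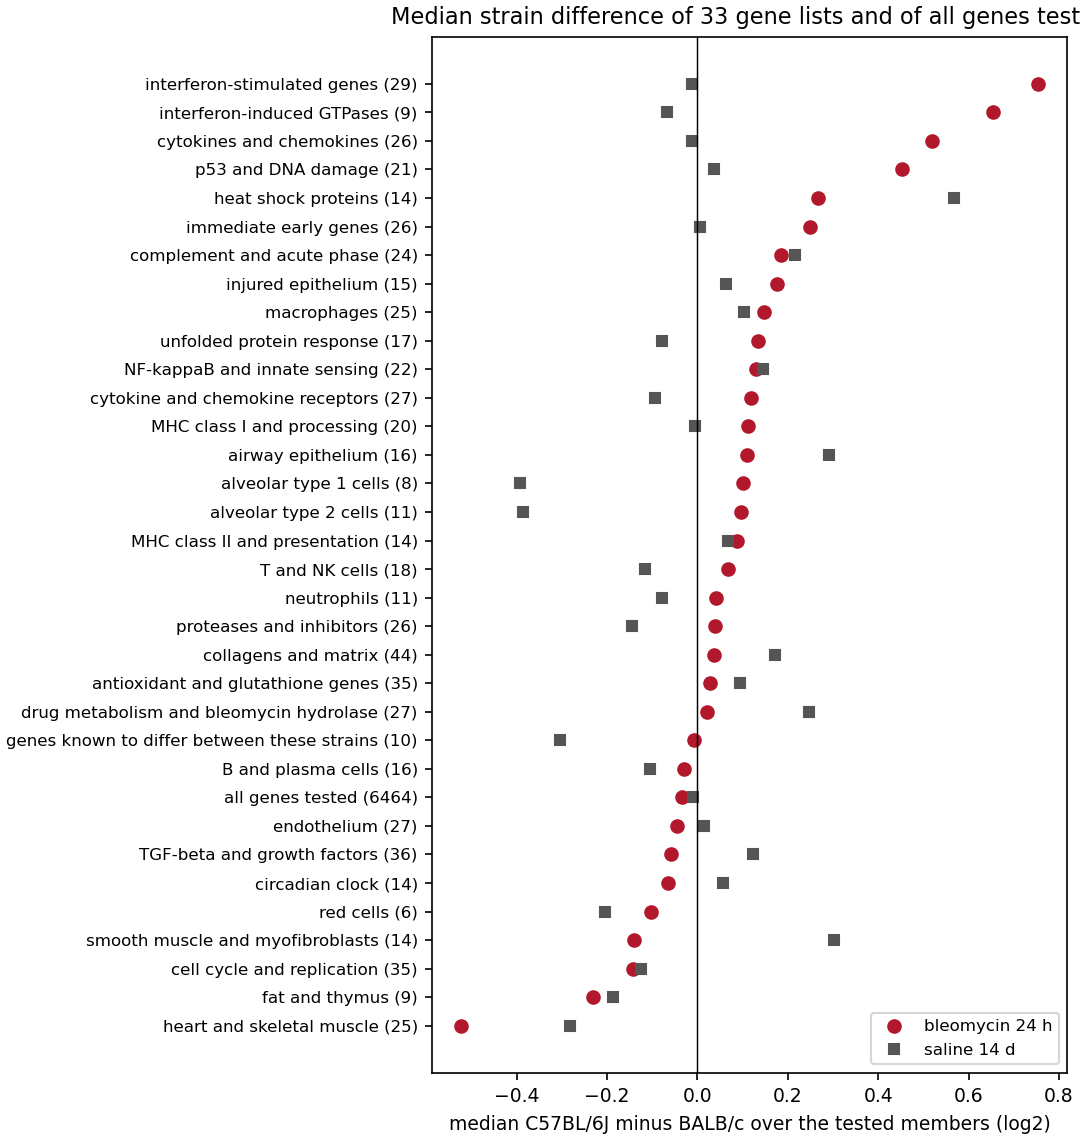
Median log2 strain difference, C57BL/6J minus BALB/c, over the tested members of 33 gene lists and over all 6464 genes, after bleomycin 24 h (circles) and saline 14 d (squares), with the number of tested genes in brackets. Interferon-stimulated genes have the highest median after bleomycin (0.75) and heart and skeletal muscle the lowest (-0.52).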

How the data were processed

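The authors deposited 1 linear intensity per probe set for 24 Affymetrix murine arrays, hybridised with total lung RNA per the labels. The algorithm behind these values is not given in the sources used. With the lowest and highest 2% trimmed, the mean was 799.9 on every array, so a scaling before deposit is inferred, and no further normalization was applied. Leaving out 66 controls, 12422 of 12488 probe sets remained: the platform annotation gives a single name to 10833, several to 396 and none to 1193, and 10817 of the one-name probe sets matched RefSeq genes (GRCm38.p6).

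An offset of 92 (the median lower quartile) was added before log2, which understates differences of dim genes. Probe sets above 225.7, the 40th percentile, on at least 2 arrays were tested (8710). A mean for each of 12 groups was fitted over all 24 arrays with limma 3.58.1 in R 4.3.3 (lmFit, eBayes with trend, 12 residual degrees of freedom), two-sided, with Benjamini-Hochberg adjustment. Log2 differences are given with the model's standard error. A gene is represented by the brightest, on average, of its one-name probe sets.

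Named genes were the 10 largest in each direction of those already present, all seen only after bleomycin, the 6 largest in each direction of the rest, up to 4 genes with the smallest p of each of 33 lists, and 12 set genes (Isg15, Cdkn1a, Ccng1, Blmh, Tgfb1, Timp1, Col1a1, Col3a1, Fn1, Acta2, H2-Ea, Nnt). The members and lists were chosen with earlier results of these data known. On simulated arrays of 8710 probe sets, 8.96%, 73.1% and 95.5% of strain differences of 0.5, 1 and 2 after bleomycin were found, with 7 false calls, and 0%, 38.8% and 84.8% of such changes in strain difference, with 5 false calls. The alternatives were another offset, filter, normalization, variance model or set of arrays, a replicate block, other saline references and the omission of each array.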

Additional observations from a re-analysis of the deposited data

Results flagged for a closer look

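The following genes had a strain difference that itself differed between the bleomycin 24 h and the saline 14 d arrays, by the limma test of that difference. Higher in C57BL/6J relative to saline were Isg15 (a change in log2 strain difference of 1.73), Ifit3 (1.79), Ifit1 (1.75), Ifit2 (1.51), Pgm2 (1.35) and Usp18 (1.10). Lower relative to saline were Aldh3a1 (-2.21), Gsto1 (-1.26), Lpcat1 (-1.15) and the unnamed probe set of the class seen only after bleomycin (-1.16). Pttg1, the securin that guards chromosome separation, changed by -1.44: it read 2223 and 1830 in C57BL/6J and 1000 and 860 in BALB/c after bleomycin, a strain difference of 1.05 against 2.49 after saline. A probe set of Pdxdc1 changed by -1.25, from 2.57 after saline to 1.33 after bleomycin.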

How the results depend on the processing

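Counts below are given as probe sets called after bleomycin 24 h, after saline 14 d and for the change, then the number already present and the number only after bleomycin, 163, 1291, 67, 91 and 7 in the fit reported. Array weights gave 329 after bleomycin, 285 for the change, 160 already present and 29 only after bleomycin. No variance trend gave 4 only after bleomycin, and the 8 arrays alone gave 11. With saline 24 h as the reference there were 218 saline calls, 2 changes and 1 only after bleomycin (Isg15), and without its b arrays (added after the data were seen) 108, 7 and 1, with 37 already present. With saline 24 h and 14 d together there were 14 changes, and with all saline times, those of 72 h exchanged between strains because they go against their labels, 829 saline calls, 4 changes and 3 only after bleomycin. Asking for a change at an adjusted p under 0.1 gave 19 only after bleomycin, and with no demand on the change 71. Leaving out 1 of the 8 arrays gave 62 to 147 calls after bleomycin, 427 to 1235 after saline, 0 to 37 changes, 42 to 68 already present and 0 to 4 only after bleomycin. The count after bleomycin was 62 without C57BL/6J bleomycin array a, 77 without b, and 95 and 63 without BALB/c bleomycin arrays a and b. Of the 163 calls, 45 held in all 8 omissions, 36 of them already present and 4 only after bleomycin. Other offsets, filters and quantile normalization kept the 5 counts within 1.5 times. Leaving out the saline 72 h arrays, or (added after the data were seen) the C57BL/6J saline 24 h arrays or the saline 24 h b arrays, did so too. With the array letter as a replicate block, counts were 163, 1244, 55, 87 and 6. Deviations of same-letter arrays from their group mean correlated over probe sets at -0.26 to 0.08 between the 4 groups compared. With the saline 24 h groups the range was -0.26 to 0.15, the highest between the 2 saline 24 h groups. With 2 arrays in a group the b deviations mirror the a ones, so these correlations cannot tell whether a letter marks shared handling. Of 54 named genes called after bleomycin, 23 were called under every alternative and 0 of 157 named genes changed the sign of a called difference. Array number and, for genes near background, signal limit what could be called.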
